A study of Homo sapiens with 15 samples.

Results

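The miR-378 family was followed through 15 small RNA libraries of U87-MG, an established cell line from a human glioblastoma. Its 5 members here, hsa-miR-378a-3p, hsa-miR-378a-5p, hsa-miR-378c, hsa-miR-378d and hsa-miR-378i (written below without the hsa prefix), were taken by name from the 1707 mature miRNAs that had at least 1 count, and all 5 were among the 562 miRNAs that passed the filter on low counts. The family was picked because miR-378i differed between HIF2α-KO and HIF1α-KO cells, so that contrast is described here without a test for any member. Every contrast of miR-378i that uses either single knockout is also given as a description only. The libraries form 5 groups of 3: control cells, which the labels call WT, kept in 21% O2 for 24 h (normoxia), and 4 groups kept in 1% O2 for 24 h (hypoxia), which were control cells, HIF1α/HIF2α-KO cells, HIF1α-KO cells and HIF2α-KO cells. All groups are U87-MG cells grown in the same medium, and the 3 knockouts were made with CRISPR/Cas9. Neither the labels nor the methods say whether a knockout was 1 clone or a pool, and an assay of mature miRNAs cannot show the loss of HIF1A or EPAS1 (HIF2α). The study sequenced these miRNAs in a search for ones that act on HIF1α or HIF2α, and no source says that the 3 libraries of a group came from separate cultures, so the p-values measure only the spread between these libraries.

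A mature miRNA is a short RNA cut from a hairpin precursor, and it guides the silencing complex to messenger RNAs that pair with its seed, the bases near its 5′ end. The MIR378A hairpin gives a mature RNA from each arm, miR-378a-5p and miR-378a-3p, and lies in an intron of PPARGC1B, which encodes the transcriptional coactivator PGC-1β. The arms are known as regulators of mitochondrial and fat metabolism, miR-378a-3p through targets that include CRAT, and miR-378a-5p through MED13, ERRγ and GABPA. The other members come from separate hairpins and resemble miR-378a-3p. HIF1α and HIF2α are the oxygen-regulated subunits of the hypoxia-inducible factors, and miR-210 is a well-known HIF target that serves here as a reference.

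The mature sequences are given first because the members differ at so few bases that short reads can be shared between them. They are RefSeq sequences on GRCh38.p14, written 5′ to 3′, with the seed (bases 2 to 8) in capitals:
miR-378a-3p: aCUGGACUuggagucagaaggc
miR-378c: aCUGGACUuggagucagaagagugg
miR-378i: aCUGGACUaggagucagaagg
miR-378b: aCUGGACUuggaggcagaa
miR-378a-5p: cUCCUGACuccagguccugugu
Of the members, miR-378a-3p, miR-378c and miR-378i share the seed CUGGACU, while miR-378a-5p has the unrelated seed UCCUGAC. Of 2370 mature names with a RefSeq sequence, 7, or 0.295%, held CUGGACU as bases 2 to 8, and they were miR-378a-3p, miR-378b, miR-378c, miR-378f, miR-378h, miR-378i and miR-422a. The mature sequences of miR-378d and miR-378e were not analysed here, so that count does not bear on them, and where miR-378d is grouped below with miR-378a-3p, miR-378c and miR-378i as a 3p-type member this is by name only. Counting positions from the 5′ end of miR-378a-3p, miR-378c was identical over its first 20 bases and then differed by G21A and C22G, after which it ran on to 25 bases. miR-378i differed by the single change U9A and ended after 21 bases. miR-378b, a relative that is not among the 5 members, differed by U14G and had 19 bases. A read of miR-378a-3p that stops at base 20 therefore cannot be told from a read of miR-378c, and how such reads were assigned is not given in the sources used here.

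The hairpin of MIR378A, shown because it carries both arms, spans chr5:149732825-149732890 on the plus strand, with the arms in capitals:
MIR378A: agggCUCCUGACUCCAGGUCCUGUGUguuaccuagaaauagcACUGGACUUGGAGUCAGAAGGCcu
In GENCODE v29 this interval lies within PPARGC1B (chr5:149730298-149855022, plus strand) and falls in an intron of all 4 transcripts that span it. The mature miR-378a-5p occupies chr5:149732829-149732850 and miR-378a-3p chr5:149732867-149732888. Mature miR-378c maps to chr10:130962634-130962658 on the minus strand, where no annotated gene overlaps its hairpin. Mature miR-378i maps to chr22:41923271-41923291 on the minus strand, and its hairpin lies inside TNFRSF13C, the BAFF receptor gene, where it overlaps the untranslated part of an exon in 1 transcript. MIR378D1, a hairpin of miR-378d, lies at chr4:5923275-5923328 on the minus strand in an intron of C4orf50. These coordinates are from the reference and not from the count files, which carry names only.

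Total counts ran from 10360337 to 22496373 per library. A floor set at 3 counts thus corresponded to at most 0.290 counts per 1000000 counts of the library (CPM). The libraries fell into 2 sets that cross the groups: summed miR-126-3p and miR-126-5p, markers of endothelial cells, reached 14.5 to 51.9 CPM (by total counts) in 9 libraries and 3.90 to 6.95 CPM in the other 6. The lower set held control hypoxia replicates 2 and 3, HIF1α-KO replicates 1 and 2, HIF2α-KO replicate 2 and HIF1α/HIF2α-KO replicate 3, while all normoxic libraries were in the other set. Of the neural and glial markers, miR-9-5p stood at 1829 to 9462 CPM and miR-128-3p at 951 to 2233 CPM, while the neuronal miR-124-3p had 0 to 6 counts in each library. Under hypoxia miR-210-3p averaged 1042 CPM in control cells, 225 CPM in HIF1α/HIF2α-KO cells, 309 CPM in HIF1α-KO cells and 1550 CPM in HIF2α-KO cells.

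The members differed widely in level. hsa-miR-378a-3p was the most abundant, with a mean of 589 CPM over the 15 libraries (scaled by TMM, edgeR's correction for library composition), and ranked 58 of all miRNAs. miR-378c and miR-378d followed at 199.6 and 199.2 CPM, miR-378a-5p at 35.4 CPM and miR-378i at 1.05 CPM. On average miR-378a-3p took 57.5% of the counts of the 5 members, miR-378c 19.5%, miR-378d 19.4%, miR-378a-5p 3.52% and miR-378i 0.102%. CPM carry no correction for length, which hardly differs among mature miRNAs, but the efficiency with which each RNA enters a library was not measured.

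hsa-miR-378a-3p, the 3p arm of MIR378A, stood at 535, 531 and 515 CPM in the normoxic control libraries and at 424, 556 and 503 CPM in the hypoxic control libraries. It reached 676, 795 and 695 CPM in HIF1α-KO cells and 688, 628 and 662 CPM in HIF1α/HIF2α-KO cells, and stood at 535, 625 and 461 CPM in HIF2α-KO cells. All 6 libraries without HIF1α were above the 9 libraries with it, though by a margin of only 625 to 628 CPM. This split was looked at after the data had been seen and shares libraries with the contrast that chose the family, so it is a description, and 1.07% of the 562 miRNAs were separated in this way and direction. By group mean the order was HIF1α-KO (722 ± 63.8, SD, n = 3), HIF1α/HIF2α-KO (659 ± 30.1), HIF2α-KO (541 ± 82.1), normoxic control (527 ± 10.5) and hypoxic control (494 ± 66.7). The libraries of neighbours in this order overlapped except between HIF1α/HIF2α-KO and HIF2α-KO cells.

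hsa-miR-378c gave 184, 180 and 173 CPM in normoxic controls, 149, 192 and 171 CPM in hypoxic controls and 236, 286 and 229 CPM in HIF1α-KO cells. It gave 181, 186 and 146 CPM in HIF2α-KO cells and 235, 228 and 218 CPM in HIF1α/HIF2α-KO cells. The 6 libraries without HIF1α were the highest here too, by a margin from 192 to 218 CPM, which is a description in the same sense. hsa-miR-378d, which is produced from more than a single hairpin, gave 175, 179.9 and 180.1 CPM in normoxic controls and 142, 200.03 and 172 CPM in hypoxic controls. It gave 244, 299 and 232 CPM in HIF1α-KO cells, 239, 214 and 193 CPM in HIF1α/HIF2α-KO cells and 186, 187 and 145 CPM in HIF2α-KO cells. For miR-378d the lowest HIF1α/HIF2α-KO library lay below the highest hypoxic control library.

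hsa-miR-378a-5p, the other arm of the same hairpin, did not set the libraries without HIF1α apart from the others. Its group means were still highest in HIF1α/HIF2α-KO (40.3 CPM) and HIF1α-KO cells (38.7 CPM). Hypoxic controls (34.2 CPM), HIF2α-KO cells (32.3 CPM) and normoxic controls (31.6 CPM) followed. Its levels were 34.0, 33.6 and 27.1 CPM in normoxic controls, 46.4, 28.3 and 28.0 CPM in hypoxic controls and 36.6, 39.9 and 39.5 CPM in HIF1α-KO cells. HIF2α-KO cells gave 32.1, 37.9 and 27.1 CPM, and HIF1α/HIF2α-KO cells gave 38.0, 36.8 and 46.1 CPM. The single highest library was hypoxic control replicate 1, the library in which miR-378a-3p, miR-378c and miR-378d were lowest of the hypoxic controls. That library was also the only hypoxic control of the set with more miR-126.

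**Figure D1:**
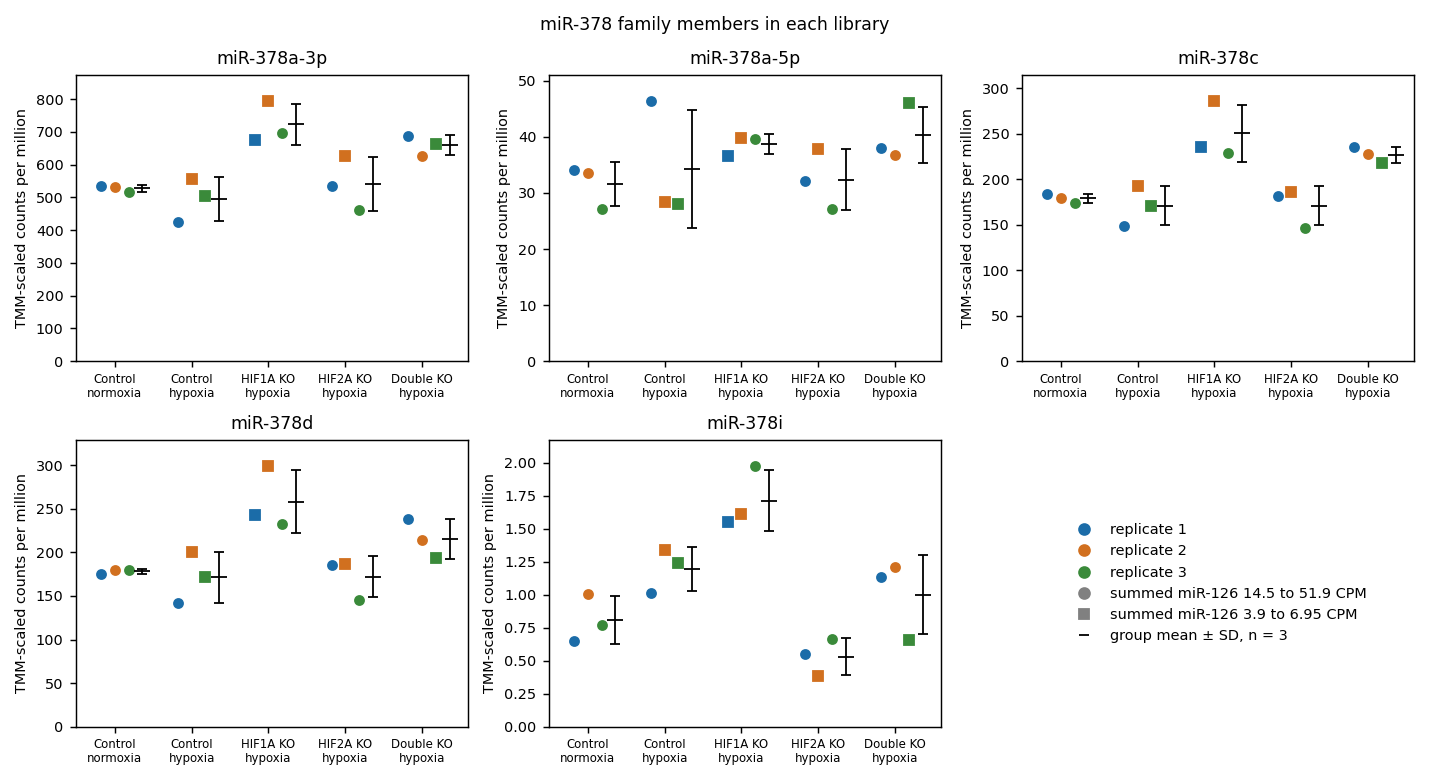
TMM-scaled CPM of the 5 miR-378 family members in each of the 15 libraries, by group; colours give the replicate, circles and squares the libraries with more and less miR-126, and black bars the group mean ± SD (n = 3). miR-378a-3p and miR-378c lie higher in HIF1α-KO and HIF1α/HIF2α-KO cells than in the other 3 groups. By group mean miR-378i is lowest in HIF2α-KO cells, at 0.381 to 0.665 CPM, which overlaps normoxic controls and HIF1α/HIF2α-KO cells. The family was picked by miR-378i in HIF2α-KO against HIF1α-KO cells.

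The first comparison was between control cells under hypoxia and under normoxia. All normoxic libraries were in the set with more miR-126, and hypoxic control replicates 2 and 3 were in the other. Oxygen was therefore partly confounded with the set. No member passed the test. For miR-378a-3p the log2 fold change was -0.09 ± 0.13 (SE), for miR-378a-5p 0.12 ± 0.21, for miR-378c -0.07 ± 0.14 and for miR-378d -0.06 ± 0.16, with edgeR quasi-likelihood adjusted p-values of 0.841, 0.865, 0.877 and 0.925. The 95% interval of miR-378a-3p, -0.38 to 0.19 gives the size of change that remains possible. hsa-miR-378i stood at 0.650, 1.00 and 0.773 CPM under normoxia and at 1.01, 1.34 and 1.24 CPM under hypoxia, so every hypoxic library was above every normoxic library. Its log2 fold change of 0.58 ± 0.30 did not pass (adjusted p = 0.724, unadjusted p = 0.0748), and such a separation was found for 7.83% of the 562 miRNAs. By edgeR 0 of the 5 members and 0% of the 562 miRNAs passed an adjusted p of 0.05, against 0 members and 35 miRNAs at an unadjusted p under 0.05. DESeq2 and limma also passed 0 miRNAs. The negative sign for miR-378a-3p, miR-378c and miR-378d and the positive sign for miR-378a-5p rested on hypoxic control replicate 1, without which they turned to 0.0010, 0.01, 0.06 and -0.17. With the miR-126 sets as a covariate the log2 fold change was -0.22 ± 0.14 for miR-378a-3p and 0.13 ± 0.24 for miR-378a-5p. It was -0.17 ± 0.15 for miR-378c, -0.16 ± 0.17 for miR-378d and 0.80 ± 0.34 for miR-378i. No member passed in that fit (edgeR adjusted p from 0.948 to 0.991). miR-210-3p did not pass in this comparison either (log2 fold change -0.19 ± 0.30, adjusted p = 0.841).

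Loss of HIF1α under hypoxia was compared with the hypoxic control next. miR-378a-3p was 1.46-fold the control level, miR-378c 1.47-fold and miR-378d 1.51-fold, and for each of these members all 3 HIF1α-KO libraries were above all 3 controls. Their log2 fold changes were 0.55 ± 0.13, 0.55 ± 0.14 and 0.59 ± 0.16, and the edgeR adjusted p-values of 0.0651, 0.0736 and 0.103 did not pass 0.05. miR-378a-5p gave 0.18 ± 0.21 (adjusted p = 0.833), and leaving out 1 library moved this value between 0.08 and 0.49. Thus 0 of the 4 tested members passed by edgeR, where 1.25% of the 562 miRNAs did. At an unadjusted p under 0.05 there were 3 such members, where 67 of the 562 miRNAs were. A separation upward, seen in these 3 members and in miR-378i, occurred in 10.1% of the 562 miRNAs. The study's own list for HIF1α-KO against control cells marks miR-378a-3p, miR-378c and miR-378d as up. The methods do not name the test for that list. As a description that includes miR-378i, the median log2 fold change was 0.55 over the 5 members and -0.05 over all miRNAs tested. The members may share reads, so they are not independent values.

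The call for miR-378a-3p, miR-378c and miR-378d depended on the test. DESeq2 passed miR-378a-3p (adjusted p = 0.0141), miR-378c and miR-378d, limma on quantile-normalized values passed miR-378a-3p (adjusted p = 0.0117), and over the 15 alternatives run for miR-378a-3p the adjusted p ranged from 0.0117 to 0.370. All 15 had the same direction, with log2 fold changes from 0.48 to 0.68. Over the alternatives the adjusted p ranged from 0.0105 to 0.428 for miR-378c and from 0.0286 to 0.403 for miR-378d. Summing the 3p-type members into a single feature pools reads moved among them, but not reads shared with relatives outside the sum. The summed feature had a log2 fold change of 0.56 ± 0.13. It includes miR-378i, so this value is a description. Within the set of libraries with less miR-126 the control libraries had 556 and 503 CPM of miR-378a-3p and the HIF1α-KO libraries 676 and 795 CPM. In the other set the single control library had 424 CPM and the single HIF1α-KO library 695 CPM. With the set as a covariate the log2 fold change of miR-378a-3p was 0.55 ± 0.12 (edgeR adjusted p = 0.0336). In that fit miR-378c (0.56 ± 0.14, edgeR adjusted p = 0.0571) and miR-378d (0.60 ± 0.16, edgeR adjusted p = 0.0755) did not pass.

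With HIF2α alone lost, the 4 tested members had log2 fold changes close to 0. miR-378a-3p gave a log2 fold change of 0.13 ± 0.13 (95% interval -0.15 to 0.41), miR-378a-5p -0.08 ± 0.21, miR-378c 0.0033 ± 0.14 and miR-378d 0.0083 ± 0.16, with edgeR adjusted p-values from 0.709 to 0.996. By edgeR 0 of the 4 members and 0% of all miRNAs passed, with 0 members and 86 miRNAs at an unadjusted p under 0.05, and DESeq2 and limma passed 0 miRNAs as well. Scaling by total counts shifted the median of all miRNAs in this comparison by -0.14 on the log2 scale and turned the signs of miR-378a-3p, miR-378c and miR-378d. miR-378i stood at 0.548, 0.381 and 0.665 CPM, below all 3 hypoxic controls. Its fitted log2 fold change was -1.17 ± 0.34, a fold of 0.443, given as a description, and a downward separation was seen in 7.3% of all miRNAs.

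In HIF1α/HIF2α-KO cells miR-378a-3p, miR-378c and miR-378d were again above the hypoxic control by group mean, and miR-378i was below it. miR-378a-3p was 1.33-fold and miR-378c 1.33-fold the control level, with all 3 double-knockout libraries above all 3 controls, and miR-378d was 1.26-fold with overlapping libraries. The log2 fold changes were 0.41 ± 0.13, 0.41 ± 0.14 and 0.33 ± 0.16, with edgeR adjusted p-values of 0.0659, 0.0742 and 0.217. miR-378a-5p (0.24 ± 0.21, adjusted p = 0.569) and miR-378i (-0.26 ± 0.29, adjusted p = 0.650) did not pass either. Leaving out 1 library moved the log2 fold change of miR-378a-5p between 0.14 and 0.54. By edgeR 0 of the 5 members passed, against 5.87% of all miRNAs, and 2 members and 137 miRNAs had an unadjusted p under 0.05. The upward separation of miR-378a-3p and miR-378c was shared by 13.7% of all miRNAs. DESeq2 passed 1 member, miR-378c (adjusted p = 0.0490), and limma passed 1, miR-378a-3p (adjusted p = 0.0146). With the miR-126 sets as a covariate edgeR passed miR-378a-3p (log2 fold change 0.48 ± 0.13, adjusted p = 0.0337) and miR-378c (0.47 ± 0.14, adjusted p = 0.0494). Over the 15 alternatives for each, the adjusted p ranged from 0.0146 to 0.355 for miR-378a-3p and from 0.0490 to 0.433 for miR-378c. The exact permutation test of CPM gave p = 0.1 for both members, the smallest value that 3 libraries against 3 can give, and the same p for the 3 separated members in HIF1α-KO cells. HIF1α-KO and HIF1α/HIF2α-KO cells were compared with the same 3 control libraries, so their values are not independent.

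The muscle miRNAs miR-1-3p, miR-133a-3p, miR-133b and miR-206, all 4 in the files, summed to 1.95 to 8.44 CPM in normoxic controls, 7.56 to 28.7 CPM in hypoxic controls, 9.98 to 45.7 CPM in HIF1α-KO cells, 20.8 to 46.4 CPM in HIF1α/HIF2α-KO cells and 3.21 to 20.1 CPM in HIF2α-KO cells. The ranges of the hypoxic controls overlapped those of all 3 knockouts. Most of the sum was miR-1-3p, and miR-206 had 0 to 3 counts in each library. The part of these RNAs in the miR-378 values was not tested. Summed endothelial markers ran from 4.01 to 33.4 CPM in HIF1α-KO cells and from 4.28 to 50.8 CPM in hypoxic controls, which overlap.

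Setting the double knockout against each single knockout asks what the loss of the second factor adds. Against HIF1α-KO cells the tested members gave log2 fold changes of -0.13 ± 0.13 for miR-378a-3p, 0.06 ± 0.21 for miR-378a-5p, -0.14 ± 0.14 for miR-378c and -0.26 ± 0.16 for miR-378d. By edgeR 0 of these 4 passed, with 0 at an unadjusted p under 0.05, where 1.42% of all miRNAs passed. Against HIF2α-KO cells the values were 0.29 ± 0.13, 0.32 ± 0.21, 0.41 ± 0.14 and 0.32 ± 0.16 in the same order. The libraries of miR-378a-3p, miR-378c and miR-378d did not overlap here, as for 8.72% of all miRNAs in this direction, but 0 of the 4 members passed by edgeR (adjusted p from 0.116 to 0.440), where 1.78% of all miRNAs passed. An unadjusted edgeR p under 0.05 was found for 2 members, miR-378a-3p and miR-378c, and for 112 of the 562 miRNAs. Scaling by total counts shifted the median of all miRNAs by 0.20 in this comparison, and miR-378c then passed (log2 fold change 0.60, adjusted p = 0.0353, over a range of 0.0353 to 0.362 in 15 alternatives).

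Whether loss of HIF1α acted differently without HIF2α was tested as an interaction in the same edgeR fit. The difference of the log2 fold changes (double knockout against HIF2α-KO, minus HIF1α-KO against control) was -0.26 ± 0.19 for miR-378a-3p, 0.14 ± 0.30 for miR-378a-5p, -0.15 ± 0.19 for miR-378c and -0.27 ± 0.22 for miR-378d. The adjusted p-values were 0.729, 0.863, 0.807 and 0.749, so no difference was detectable at this replication.

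The contrast for which the family was picked, HIF2α-KO against HIF1α-KO cells, is described only. All 5 members were lower in HIF2α-KO cells by fitted value: miR-378i had a log2 fold change of -1.66 ± 0.33 (a fold of 0.316), miR-378d -0.58 ± 0.16, miR-378c -0.55 ± 0.14, miR-378a-3p -0.42 ± 0.13 and miR-378a-5p -0.26 ± 0.21. The libraries did not overlap for any member but miR-378a-5p, and 9.43% of all miRNAs were separated in this direction. An adjusted p under 0.05 was reached by 1.07% of the 562 miRNAs in this contrast.

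**Figure D2:**
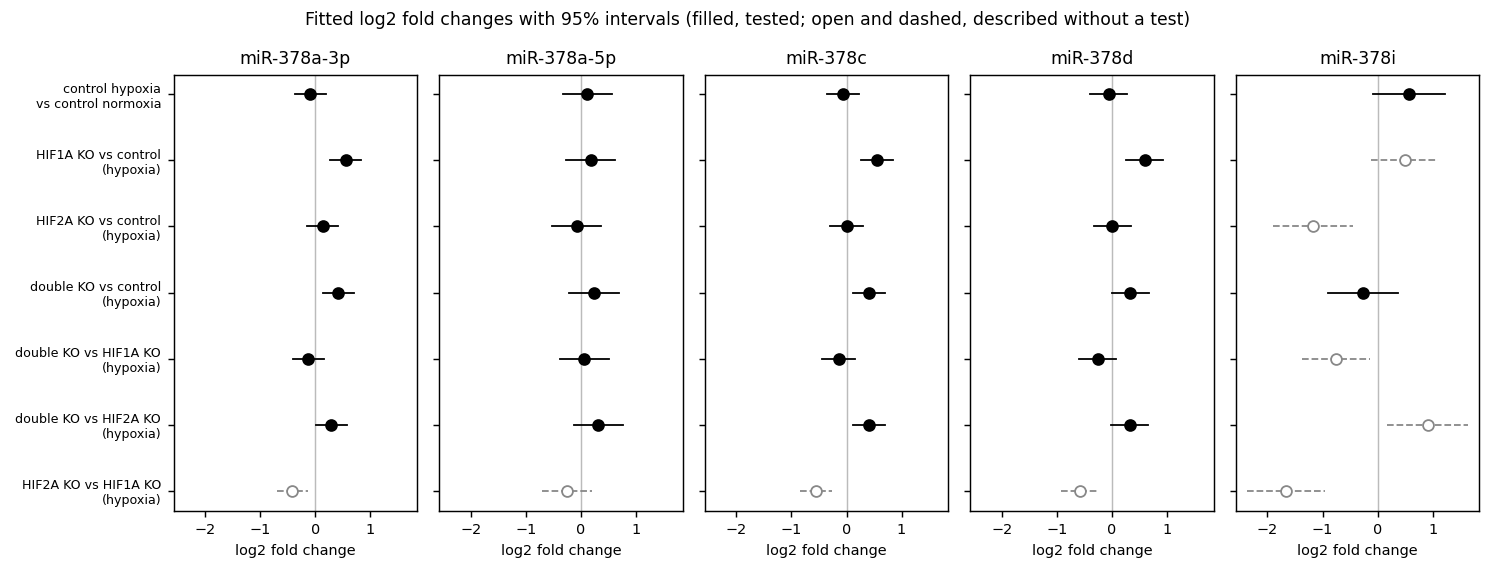
Fitted log2 fold changes (points) with 95% intervals (lines) of the 5 members in 7 comparisons, first group minus second; filled points were tested, open points with dashed lines are descriptions. The intervals of miR-378a-3p and miR-378c lie above 0 in HIF1α-KO and HIF1α/HIF2α-KO cells against control, and no filled point passed the adjusted threshold.

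The low level of miR-378i sets how firmly its values can be read. Its counts were 8, 13 and 12 in normoxic controls, 11, 31 and 17 in hypoxic controls, 18, 16 and 8 in HIF1α/HIF2α-KO cells, 19, 33 and 22 with HIF1α alone lost and 7, 4 and 7 with HIF2α alone lost. The exact 95% Poisson interval of the 4 counts in HIF2α-KO replicate 2 runs from 1.09 to 10.2, and that of the 33 counts in HIF1α-KO replicate 2 from 22.7 to 46.3. Such intervals cover counting error only. By group mean the order was HIF1α-KO (1.71 ± 0.231 CPM, SD, n = 3), hypoxic control (1.20 ± 0.167), HIF1α/HIF2α-KO (1.00 ± 0.301), normoxic control (0.809 ± 0.179) and HIF2α-KO (0.531 ± 0.143). These means thus ran in another order than those of miR-378a-3p, with the hypoxic control above the double knockout. The libraries of the hypoxic control and the double knockout overlapped, and the ends of the order are the single knockouts that chose miR-378i. Double-knockout libraries lay below all HIF1α-KO libraries (log2 fold change -0.75 ± 0.29, a description), as for 10.9% of all miRNAs, and overlapped those of HIF2α-KO cells (0.91 ± 0.34, a description).

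Ratios within a library do not depend on its scaling, and they describe how far the members kept in proportion. miR-378a-3p and miR-378c kept a nearly fixed ratio: 2.76 to 3.36 counts of miR-378a-3p per count of miR-378c over the 15 libraries, a coefficient of variation of 5.08%. The ratio of miR-378a-3p to miR-378d ran from 2.66 to 3.43, and that of miR-378c to miR-378d from 0.956 to 1.13. Over 15 libraries the Pearson r of log2(CPM + 1) was 0.96 between miR-378a-3p and miR-378c, 0.97 between miR-378c and miR-378d and 0.94 between miR-378a-3p and miR-378d, as a description of libraries that share their depth and may share reads. Between the arms of MIR378A the coupling was looser (r = 0.43): there were 9.12 counts of miR-378a-3p per count of miR-378a-5p in hypoxic control replicate 1 and 14.4 to 19.9 in the other 14 libraries.

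The number of miR-378i counts per 10000 counts of miR-378a-3p, which differs from it by U9A, varied more, with a coefficient of variation of 36.2%. It rests on only 4 to 33 counts of miR-378i per library. It was 15.3 ± 3.37 (SD, n = 3) in normoxic controls, 24.2 ± 0.348 in hypoxic controls, 23.9 ± 4.16 in HIF1α-KO cells, 15.2 ± 4.82 in HIF1α/HIF2α-KO cells and 10.2 ± 4.16 in HIF2α-KO cells. In hypoxic controls the 3 libraries, with totals that differ widely, gave 23.9, 24.1 and 24.6, with exact 95% counting intervals of 11.9 to 42.8, 16.4 to 34.2 and 14.3 to 39.4. The ratio was 1.58 times as high under hypoxia as under normoxia, and in the double knockout it was 0.630 times the hypoxic control. In both comparisons the values of the libraries did not overlap, but their counting intervals did. The two-sided exact permutation test gave p = 0.1, again its lowest possible value. How many other miRNAs separate in this way as a ratio to miR-378a-3p was not counted. This ratio was tested after the data had been seen. The ratios that use a single knockout are descriptions.

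**Figure D3:**
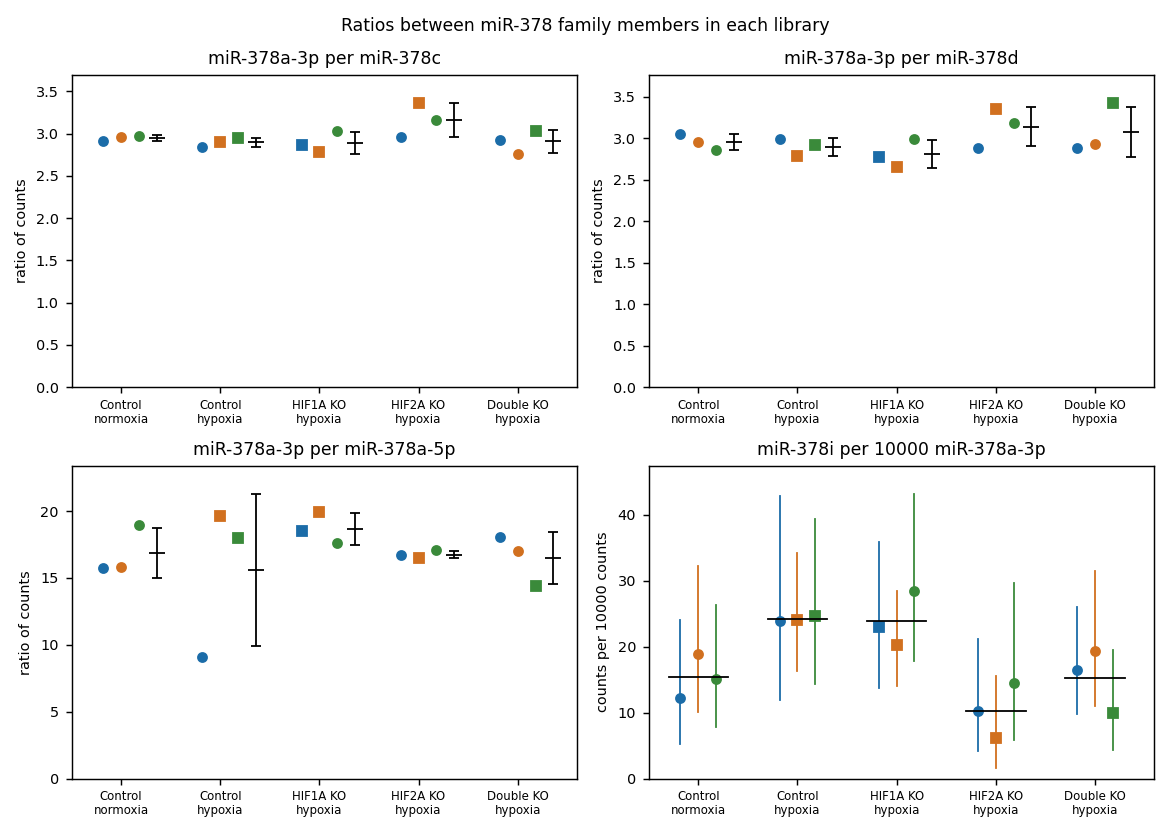
Ratios of counts between members in each library, by group; colours give the replicate, circles and squares the libraries with more and less miR-126, black bars the mean ± SD (n = 3), and in the panel of miR-378i the coloured lines are exact 95% counting intervals and the black line the mean. The ratios of miR-378a-3p to miR-378c and miR-378d stay between 2.66 and 3.43, while miR-378i per 10000 counts of miR-378a-3p runs from 6.09 to 28.4. The lowest of these values is in HIF2α-KO and the highest in HIF1α-KO cells, the groups whose contrast in miR-378i chose the family.

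Among 7 further relatives that were looked for by name, 5 were in the files and 4, miR-378b, miR-378e, miR-378f and miR-378h, passed the filter. By edgeR 0 of the 4 passed in the 6 comparisons tested. At an unadjusted p under 0.05 there were 2 in the double knockout against control, where 137 of the 562 miRNAs were, 3 in the double knockout against HIF2α-KO cells, where 112 were, and 0 in the other comparisons. miR-378f, which has the seed of miR-378a-3p, averaged 8.08 CPM in hypoxic controls and 12.1 CPM in HIF1α/HIF2α-KO cells (log2 fold change 0.58 ± 0.20, adjusted p = 0.0850). miR-378e averaged 2.60 and 3.87 CPM in the same groups (0.58 ± 0.21, adjusted p = 0.0945). In both cases the double-knockout libraries were all above the controls, as for 13.7% of all miRNAs. miR-378h, which differs from miR-378a-3p by A12U and A19U, had 17 to 68 counts in each library. miR-422a had 0 to 2 counts in each library and was not tested. miR-378g and miR-378j were among the names looked for but had no entry in the counts.

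miR-378b differed between the 2 sets of libraries. It had 45 to 117 counts, 3.52 to 8.86 CPM, in the 9 libraries with more miR-126, and 10 to 26 counts, 0.728 to 1.24 CPM, in the other 6. In HIF1α/HIF2α-KO cells it stood at 7.24, 8.86 and 0.820 CPM, and the low library was the one of the lower miR-126 set. The ranges of miR-378b in the sets did not overlap, and each hypoxic group had libraries in both, whereas the ranges of the 5 members overlapped between the sets: miR-378a-3p ran from 424 to 695 CPM in the set with more miR-126 and from 503 to 795 CPM in the other. Of the 24 cell type marker miRNAs looked for that were in the files, 4 were likewise higher in the set with more miR-126 without overlap, as were 15, or 2.67%, of the 562 miRNAs. They were miR-126-3p itself, the erythroid miR-451a (5.67 to 18.3 CPM against 2.10 to 3.43) and the epithelial miR-205-5p (4.91 to 18.6 CPM against 0.586 to 1.47) and miR-200b-3p (7.65 to 20.2 CPM against 3.49 to 7.58). The part of such RNAs in the miR-378b values was not tested. The Pearson r of miR-378b with miR-378a-3p was -0.27 over 15 libraries. The sets were defined by miR-126, and the values of miR-378b and of these markers within them were examined after the data had been seen.

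**Figure D4:**
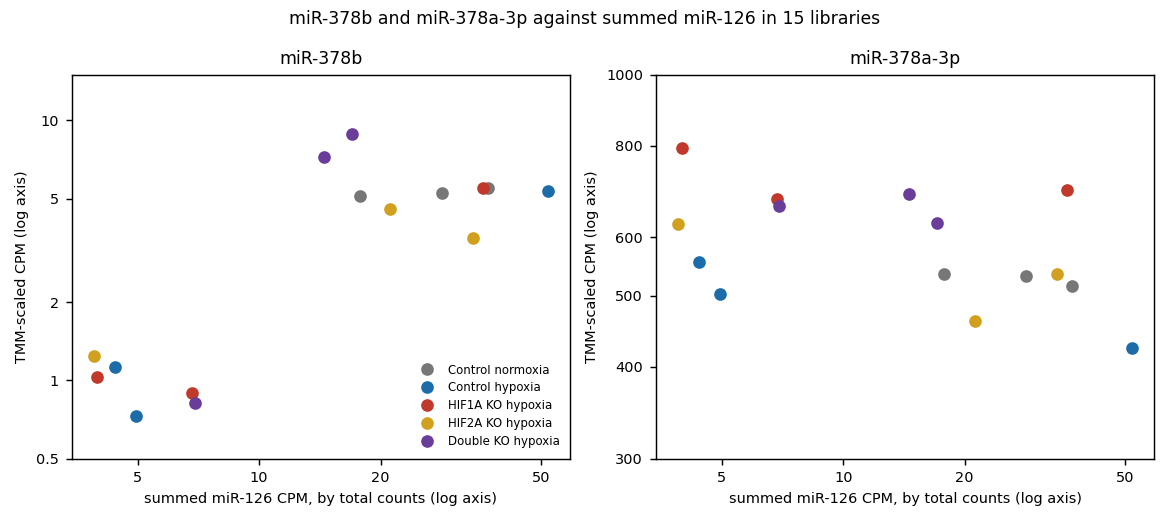
Levels of miR-378b (left) and miR-378a-3p (right) against summed miR-126-3p and miR-126-5p (by total counts) in the 15 libraries, in CPM on log axes; colours give the group. miR-378b lies at 0.728 to 1.24 CPM in the 6 libraries with less miR-126 and at 3.52 to 8.86 CPM in the other 9, while the ranges of miR-378a-3p overlap.

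The miRNAs outside the family whose levels ran most like those of a member were named by Pearson r of log2(CPM + 1) over the 15 libraries. For miR-378a-3p, miR-378c and miR-378d the first was miR-215-5p (r = 0.88, 0.94 and 0.88) and the second miR-192-5p (r = 0.88, 0.88 and 0.79). miR-215-5p averaged 77.9 CPM and miR-192-5p 214 CPM. Next came miR-362-5p, miR-6505-5p and miR-502-5p for miR-378a-3p. For miR-378c they were miR-6505-5p, miR-582-3p and miR-362-5p, and for miR-378d miR-10b-5p, miR-7706 and miR-6505-5p. The nearest to miR-378a-5p were miR-500a-3p (r = 0.76), miR-502-3p (r = 0.75), miR-532-3p, miR-106a-5p and miR-532-5p, of which miR-500a, miR-502 and miR-532 belong to the cluster in CLCN5. For miR-378i the nearest, miR-3074-3p, reached only r = 0.68, ahead of miR-3617-5p, miR-505-5p, miR-1287-5p and miR-328-5p. miR-210-3p, looked at by name, had r = -0.72 with miR-378a-3p, -0.81 with miR-378c and -0.73 with miR-378d. With miR-378i it had -0.59 and with miR-378a-5p -0.44. Negative r were not ranked, so other miRNAs may lie lower.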

How the data were processed

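Small RNA was sequenced from U87-MG cells in 15 libraries, 3 in each of 5 groups taken from the sample labels. The authors deposited 1 table of raw counts per library, with whole-number counts per mature miRNA name. The submitters' processing notes name HISAT2, StringTie and DESeq2. Their versions, the genome build and the rule for reads that match several miRNAs are not given in the sources used here, and the last could move counts between miR-378a-3p and miR-378c. The methods name quantile normalization, which was run as an alternative.

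The deposited counts were joined by name. miRNAs were filtered with filterByExpr, scaled by TMM and fitted in edgeR 4.0.16 (R 4.3.3) by quasi-likelihood with a mean per group over all 15 libraries, and p-values were adjusted by Benjamini-Hochberg over all 562 miRNAs (threshold 0.05). The script was tested on simulated counts. CPM are counts per 1000000 counts of a library, scaled by TMM, and intervals are 95%. DESeq2 1.42.0, limma 3.58.1 (quantile normalization of log2(CPM + 1) values), other scalings and filters, a replicate block and leaving out each library were alternatives. Exact permutation tests (scipy 1.17.1) were two-sided. Sequences were read from a RefSeq table for 10 of the 12 members and relatives listed. The named miRNAs were the 5 members, 7 relatives, miRNAs in introns of other metabolic genes, miR-210, marker lists, and the 5 miRNAs most correlated with each member. Members and lists were chosen with earlier results of these data known.

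Libraries carry replicate numbers 1 to 3 in each group. Deviations from the group means correlated between same-numbered libraries at 0.12 to 0.52 for HIF2α-KO against control, above 0.1 for every pair, and at -0.66 to 0.65 over the other comparisons. No 2 libraries of a group agreed within counting noise (smallest chi-square per degree of freedom 49.3).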

Additional observations from a re-analysis of the deposited data

How the results depend on the processing

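Of 525 fold changes of members recomputed under alternatives, 483 kept their direction and their side of the threshold, and all 5 mean shares of the family did. The 525 include the contrasts given as descriptions, for which no call was made. The calls for the members rested on the choice of test. In HIF1α-KO cells against control, 1 member passed with total counts, with limma, with at least 10 counts in every library compared and with the miR-126 sets as a covariate, and 3 passed with DESeq2. In the double knockout against control, 1 passed with total counts, limma or DESeq2 and 2 with the miR-126 sets. Against HIF2α-KO cells, 1 passed with total counts. No member passed when any 1 library was left out, in any comparison tested.

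The number of all miRNAs past the threshold moved more. Without the filter on low counts it was 15 under hypoxia against normoxia, 11 in HIF2α-KO against control, 26 in the double knockout against HIF1α-KO, 21 against HIF2α-KO and 14 in HIF2α-KO against HIF1α-KO. With DESeq2 it was 12 in HIF1α-KO and 60 in the double knockout against control, 25 and 19 in the double knockout against HIF1α-KO and HIF2α-KO, and 20 between the single knockouts. With limma the double knockout against HIF1α-KO gave 16. Total counts gave 50 in the double knockout against control and 12 between the single knockouts, and the miR-126 sets gave 61 in the former and 5 in the double knockout against HIF1α-KO. With at least 10 counts in every library compared, the double knockout against HIF1α-KO gave 4 and the single knockouts gave 14. With only the libraries compared, 0 remained in HIF1α-KO against control, in the double knockout against HIF1α-KO and between the single knockouts, and 2 in the double knockout against HIF2α-KO. Leaving out 1 library gave 2 to 6 in HIF1α-KO, 0 to 10 in HIF2α-KO and 15 to 32 in the double knockout against control, 0 to 14 and 2 to 17 in the double knockout against HIF1α-KO and HIF2α-KO, and 2 to 18 between the single knockouts. The causes were not tested.

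Signs turned only among members whose log2 fold change was between -0.09 and 0.13 in the reported fit. In HIF2α-KO against control they were -0.0080, -0.13 and -0.13 for miR-378a-3p, miR-378c and miR-378d with total counts, 0.050, -0.030 and -0.020 for miR-378a-5p, miR-378c and miR-378d with limma, and -0.052 and -0.049 for miR-378c and miR-378d without the filter. With limma miR-378a-5p was -0.083 in the double knockout against HIF1α-KO. Leaving out 1 library gave, under hypoxia against normoxia, -0.20 to 0.0010 for miR-378a-3p, -0.17 to 0.23 for miR-378a-5p, -0.17 to 0.015 for miR-378c and -0.20 to 0.056 for miR-378d. In HIF2α-KO against control the ranges were -0.012 to 0.23, -0.23 to 0.20, -0.085 to 0.10 and -0.11 to 0.14 in the same order, and miR-378a-5p ran from -0.054 to 0.15 in the double knockout against HIF1α-KO.

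A fit with the replicate number as a block passed 0 members in every comparison and 3 miRNAs between the single knockouts, where the fit without it passed 6. In that contrast 1 of 6 libraries correlated best with its own number, and in HIF2α-KO against control 4 of 6. The block changed no other call for the members. With 4 to 33 counts of miR-378i per library, depth limits what can be said of it, and 3 libraries per group limit every test.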

Other observations

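Among 8 miRNAs listed for introns of other metabolic genes (SREBF1, SREBF2 and the PANK genes), 6 were in the files and 4 were tested: miR-33a-5p, miR-33a-3p, miR-33b-3p and miR-107. By edgeR 0 of the 4 passed in the 6 comparisons tested. miR-107, from an intron of PANK1, stood at 1328, 1188 and 1240 CPM in hypoxic controls and at 1604, 2182 and 1369 CPM in HIF2α-KO cells (log2 fold change 0.46 ± 0.16, adjusted p = 0.219, unadjusted p = 0.0130, where 86 of the 562 miRNAs were under 0.05). It gave 0.15 ± 0.16 in HIF1α-KO cells and 0.15 ± 0.16 in the double knockout against the same controls, neither past the threshold. miR-33b-3p, from an intron of SREBF1, averaged 8.30 CPM under normoxia and 5.72 CPM under hypoxia (-0.54 ± 0.29, adjusted p = 0.724).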
